A study of Homo sapiens with 6 samples.

Results

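The 10 genes described here, TP53I3, FDXR, CMBL, SPATA18, PLK2, PLK3, PHLDA3, ZMAT3, TP53I11 and TP53I13, are targets of p53 that act in metabolism, in mitochondria and in signaling. They were found by their symbols among the 27942 genes of the deposited table, and each matched 1 row. Their mRNA was measured by RNA-seq of polyadenylated RNA in HCT116, an established human colorectal carcinoma line. The cells were grown for 24 h either untreated (NT) or with oxaliplatin at 0.5 µM (OXA), a platinum drug that crosslinks DNA. There were 3 libraries in each group, with totals between 32979521 and 40967880 counts. The labels number the replicates and do not say whether they were separate cultures, so the p-values measure the spread between these libraries.

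p53 is a transcription factor that is kept low in unstressed cells and accumulates when DNA is damaged. It then binds DNA near its target genes and raises their transcription, and besides the well-known genes of cell cycle arrest and apoptosis these targets include enzymes of redox and intermediary metabolism, proteins that act on mitochondria, kinases, and inhibitors of growth signaling. Because oxaliplatin adducts damage DNA, the comparison of OXA with NT asks how the mRNA of these genes differed after 24 h of treatment.

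Of the 10 genes, 7 rose in OXA, namely TP53I3, FDXR, PHLDA3, PLK3, ZMAT3, PLK2 and CMBL, each with an adjusted p under 0.05 and a fold change over 1.5. Among all 13727 genes tested, 5.07% passed in either direction, 2.78% rose and 2.29% fell at this adjusted p, and 1.97% rose when the fold change was required as well. None of the 10 genes fell. The same 7 rose when library number was added to the fit as a block, where 23.0% of all genes passed, 12.1% upward and 10.9% downward. TP53I11 and TP53I13 did not pass the test in either direction, also at an unadjusted p, and SPATA18 was too low to be tested. Adjusted p-values are those of edgeR's quasi-likelihood test, corrected by Benjamini-Hochberg for the whole set of tested genes, and levels are counts normalized by TMM, a scaling with 1 factor per library. For 8 of the 10 genes, SPATA18 included, the lowest OXA library exceeded the highest NT library, which 14.5% of the tested genes did.

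The DNA around the start sites of these genes was searched for the p53 consensus, a pair of adjoining decamers that each hold the letters CNNG at their centre. The search covered 2000 bases on either side of the canonical start site of GENCODE release 44 on GRCh38, without a spacer between the decamers, and required the C and G letters of both centres. The consensus reads the same on either strand. These matches are shown because they show how near each gene comes to the p53 consensus, and each is written 5′ to 3′ along the strand of its gene, with the C and G letters of the centres in capitals.
ZMAT3, 0 mismatches, intron, chr3:179070188-179070207, minus strand: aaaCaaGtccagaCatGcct
SPATA18, 2 mismatches, intron, chr4:52051957-52051976, plus strand: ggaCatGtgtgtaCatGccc
CMBL, 2 mismatches, intron, chr5:10307584-10307603, minus strand: acaCaaGcccacaCaaGccc
FDXR, 3 mismatches, before the start, chr17:74872996-74873015, minus strand: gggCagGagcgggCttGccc
TP53I3, 3 mismatches, before the start, chr2:24085165-24085184, minus strand: cagCttGcccaccCatGctc
TP53I13, 3 mismatches, intron, chr17:29569126-29569145, plus strand: aggCtaGcccagtCccGctc
A window without any mismatch was found for 0.0658% of the 13675 tested genes with a start site, for 2.92% with up to 2 mismatches and for 16.2% with up to 3. ZMAT3 thus held a full match, 1611 bases after its start. PLK2, PLK3, PHLDA3 and TP53I11 had none with up to 3 mismatches in this window. A match describes the letters only, and no binding was measured here.

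TP53I3 also carries a pentamer repeat of the form TGNCC (with C or T in the third place) in its first exon, which is known as the stretch through which p53 acts on this gene. It is shown with the repeat of TP53I11, since both genes hold one in the reference genome and only TP53I3 rose. The units were counted in GRCh38, and their number in HCT116 was not measured. The first 25 bases of each are given, with capitals for the TG that opens each unit.
TP53I3, 15 units, chr2:24084343-24084417, minus strand: TGcccTGtccTGtccTGcccTGccc
TP53I11, 9 units, chr11:44950782-44950826, minus strand: TGcccTGcccTGcccTGtccTGccc
Both stretches are untranslated, and they begin 417 and 57 bases after the start of the canonical transcript. At least 4 units in a row, on either strand, were present within 2000 bases of the start in 12 of 13675 tested genes (0.0878%), at least 9 units in 3 genes, and 15 or more in TP53I3 alone.

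For FDXR the consensus match ends just before the RefSeq start site. Its 250 bases before the start, from RefSeq on GRCh38.p14 (chr17:74872995-74873244, minus strand), are shown with the match in capitals.
FDXR promoter: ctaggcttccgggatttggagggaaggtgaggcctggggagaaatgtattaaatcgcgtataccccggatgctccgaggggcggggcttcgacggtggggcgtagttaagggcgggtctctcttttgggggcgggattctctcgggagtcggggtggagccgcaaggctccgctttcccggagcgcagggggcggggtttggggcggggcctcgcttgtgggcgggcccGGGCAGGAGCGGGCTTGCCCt
In this promoter, 67.6% of the bases are G or C. Across 27305 RefSeq promoters of this length, 0.861% held a match with up to 3 mismatches. The table of promoters had entries for 8 of the 10 genes, and FDXR was the only 1 of the 8 with such a match in these 250 bases.

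**Figure D1:**
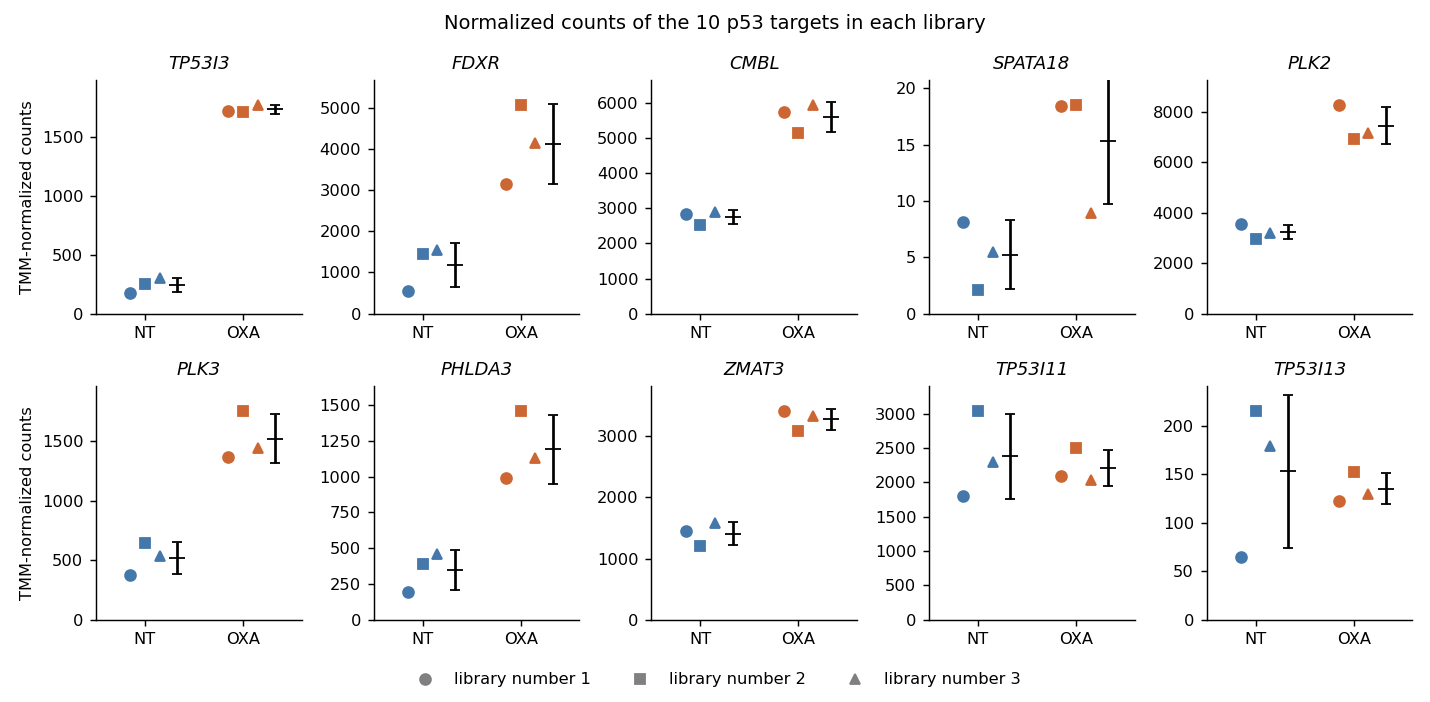
TMM-normalized counts (vertical axis, from 0) of each of the 10 genes in the NT and OXA libraries, with the marker shape giving the library number and the black bars the mean ± SD of 3 libraries. The groups are apart for 8 genes and overlap for TP53I11 and TP53I13, and NT library 1 is the lowest library of its group for TP53I3, FDXR, PLK3, PHLDA3, TP53I11 and TP53I13.

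TP53I3 (ENSG00000115129), which encodes a quinone oxidoreductase linked to the formation of reactive oxygen species, was the gene of the group that rose most. Its normalized counts were 178, 248 and 302 in NT libraries 1 to 3 and 1714, 1705 and 1769 in OXA libraries 1 to 3. The lowest OXA library was thus 5.65-fold above the highest NT library. The log2 fold change was 2.83 with a 95% interval from 2.39 to 3.27 (7.11-fold, edgeR adjusted p = 0.00109), and 12 of the 13727 tested genes had a larger one. The OXA libraries were close to each other, with a coefficient of variation of 1.99%, against 25.7% in NT. FAM228B, whose exons overlap those of TP53I3 on the other strand, had between 38 and 61 raw counts in every library and did not pass (log2 fold change -0.23, adjusted p = 0.614).

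FDXR (ENSG00000161513) encodes ferredoxin reductase, the mitochondrial flavoenzyme that hands electrons from NADPH to the ferredoxins for steroid synthesis and for building iron-sulfur clusters. The NT libraries held 556, 1440.4 and 1549.6 normalized counts and the OXA libraries 3147, 5072 and 4138. All OXA libraries were above the NT libraries, but the spread was wide, with a coefficient of variation of 46.1% in NT and 23.4% in OXA. The log2 fold change of 1.80 had a 95% interval from 0.95 to 2.65 (3.48-fold, edgeR adjusted p = 0.0361). FDXR passed in 1 of the 6 fits with 1 library omitted, the fit without NT library 1 (log2 fold change 1.46, edgeR adjusted p = 0.00203), and the adjusted p reached 0.135 in the fit without OXA library 2. In the 5 fits that missed, its log2 fold change was 1.62 to 2.02, and the calls over all genes numbered 85 to 299 against 696 with all libraries. The block gave FDXR an adjusted p of 0.00418 at a log2 fold change of 1.89.

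Around FDXR, 8 genes of the ferredoxins, of iron-sulfur cluster assembly and of iron regulation (IREB2) were examined. ISCU, the scaffold on which the clusters are assembled, rose from 1925 ± 68.6 to 3674.5 ± 283 normalized counts (mean ± SD, n = 3; log2 fold change 0.93, edgeR adjusted p = 0.00340). Its OXA libraries all lay above its NT libraries. FDX1 and FDX2, the electron acceptors of FDXR, had log2 fold changes of 0.083 and 0.45 (edgeR adjusted p = 0.755 and 0.389). NFS1, LYRM4, HSCB, GLRX5 and IREB2 did not pass either, at values between -0.024 and 0.26. The median log2 fold change of the 8 genes was 0.099, against 0.023 over all genes tested.

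CMBL (ENSG00000164237) encodes a cytosolic hydrolase that is known for activating the prodrug olmesartan medoxomil. Its normalized counts were 2853, 2518 and 2886 in NT and 5745, 5139.7 and 5953 in OXA. It rose least of the 7 genes but most evenly, since the log2 ratios of same-numbered libraries were 1.01, 1.03 and 1.04. The log2 fold change was 1.03 (95% interval 0.80 to 1.26, 2.04-fold, edgeR adjusted p = 0.00313), and it passed in all 6 fits that left out 1 library.

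SPATA18 (ENSG00000163071), also known as Mieap, takes part in the clearance of damaged mitochondria. The raw counts were 8, 2 and 6 in the NT libraries against 17, 17 and 10 in the OXA libraries, so it stood close to the floor of 3 counts and was removed by the filter on low counts. Its OXA libraries were above its NT libraries, although the nearest pair, 10 and 8 counts, was hardly apart, and the ratio of the group means was 2.91-fold. A fit without the filter gave a log2 fold change of 1.47 with a 95% interval from 0.22 to 2.73, which did not pass after correction (edgeR adjusted p = 0.214). In the authors' normalized values OXA library 2 stood at 41.6 and OXA libraries 1 and 3 at 12.4 and 11.95, the factor applied to the 17 counts of OXA library 2 being 2.45.

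Of 4 mitophagy genes set beside SPATA18, BNIP3, an outer-membrane receptor, rose from 1351 ± 142 to 2037 ± 36.2 normalized counts (log2 fold change 0.59, edgeR adjusted p = 0.0223). BNIP3L, PINK1 and FUNDC1 did not pass, with log2 fold changes between 0.13 and 0.26. BNIP3 passed in 2 of the 6 fits that omitted 1 library, those without NT library 1 or 2, and missed the threshold with the authors' factors (log2 fold change 0.61, edgeR adjusted p = 0.0786).

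**Figure D2:**
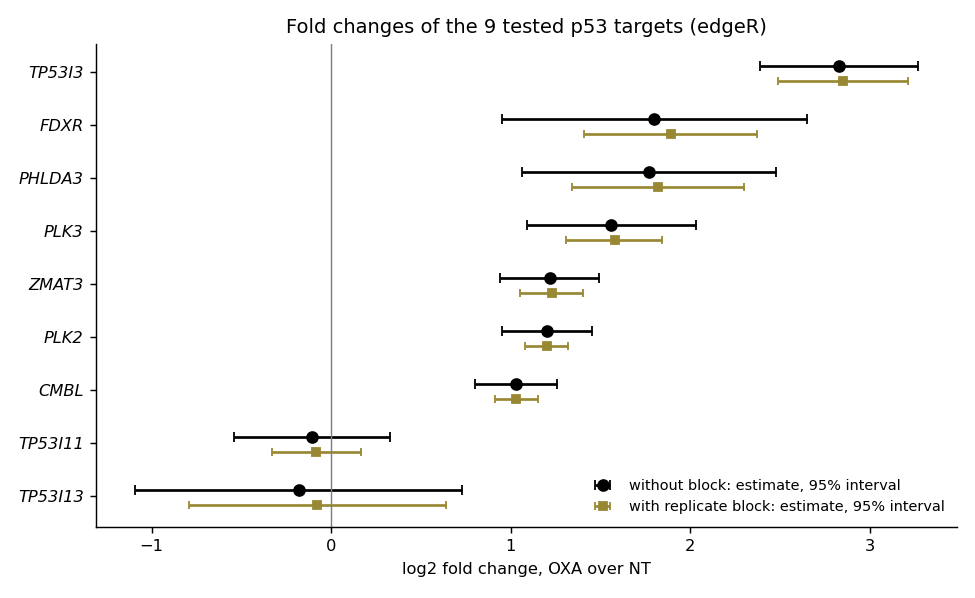
Log2 fold change of OXA over NT (horizontal axis) for the 9 tested genes, as the edgeR estimate with its 95% interval, without a block in black and with library number as a block in brown. The intervals of 7 genes lie above 0 in both fits, those of TP53I11 and TP53I13 include 0, and FDXR and PHLDA3 have the widest black intervals of the 7.

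PLK2 and PLK3 encode polo-like kinases that respond to stress and growth factors, PLK2 being known for its part in centriole duplication. For PLK2 (ENSG00000145632) the NT libraries held 3540, 2973 and 3211 normalized counts, and the OXA libraries held 8279, 6914 and 7160.1. For PLK3 (ENSG00000173846) they held 374, 640.2 and 533, and 1369.8, 1752 and 1438. In both genes the groups were well apart, the lowest OXA library being 1.95-fold above the highest NT library for PLK2 and 2.14-fold for PLK3. The log2 fold change was 1.20 for PLK2 (95% interval 0.95 to 1.45, 2.30-fold, edgeR adjusted p = 0.00247) and 1.56 for PLK3 (95% interval 1.09 to 2.03, 2.95-fold, edgeR adjusted p = 0.00876). PLK2 passed in all 6 fits that left out 1 library, whereas PLK3 passed in 5 and had an adjusted p of 0.0509 without NT library 3. DYNLT4, which overlaps PLK3 on the other strand, had 1 count in all libraries together.

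The responses of PLK3 and PLK2 were set side by side through the ratio of the pair within each library. The log2 of PLK3 over PLK2 raw counts was -3.24, -2.22 and -2.59 in NT and -2.60, -1.98 and -2.32 in OXA, so the groups overlapped. Between same-numbered libraries the ratio was 0.65, 0.24 and 0.28 higher in OXA, and 0.39 higher on average. The canonical transcripts hold 60.8% G and C in PLK3 and 45.8% in PLK2. NT library 1 deviated from the NT mean by -0.43 in PLK3 and by 0.13 in PLK2 on the log2 scale. With the replicate block and the GC trends of the libraries removed, the log2 fold changes were 1.38 for PLK3 and 1.22 for PLK2. The part of GC content in the ratio was not tested. The difference between the kinases was not tested, and no model of the ratio was fitted. An exact permutation test of 3 against 3 libraries could not go below p = 0.10. In contrast to these kinases, PLK1 and PLK4, which drive mitosis and centriole duplication, did not rise. PLK1 stood at 5690 ± 716 normalized counts without and 5622 ± 114 with the drug (log2 fold change -0.017, edgeR adjusted p = 0.947). For PLK4 the values were 1758 ± 231 and 1252 ± 83.8, without overlap between the groups (log2 fold change -0.49, edgeR adjusted p = 0.0628), and with the replicate block PLK4 fell (edgeR adjusted p = 0.00982). PLK5 had 0 counts in every library.

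PHLDA3 (ENSG00000174307) encodes a small protein that consists of little more than a pleckstrin homology domain and competes with the kinase AKT for membrane lipids, thereby holding AKT back. Its normalized counts were 194, 389.7 and 462 in NT and 988, 1459 and 1128 in OXA. The groups did not overlap, and the lowest OXA library was 2.14-fold above the highest NT library. The log2 fold change was 1.77 (95% interval 1.06 to 2.48, 3.41-fold, edgeR adjusted p = 0.0218). PHLDA3 passed in 1 of the 6 fits that left out 1 library, again the fit without NT library 1 (log2 fold change 1.48, edgeR adjusted p = 0.00167), and the adjusted p reached 0.0944 without OXA library 2. With the replicate block it was 0.00450, at a log2 fold change of 1.82. A long noncoding RNA gene shares exonic bases with PHLDA3 on the same strand and has no row among the deposited counts. Reads from the shared bases cannot be told apart here.

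The relatives and the target of PHLDA3 did not pass the test. The values were 0.22 for PHLDA1 (adjusted p = 0.327) and 0.74 for PHLDA2 with a standard error of 0.44 (adjusted p = 0.388) on the log2 scale, but both rose with the replicate block (edgeR adjusted p = 0.0246 and 0.0116). For AKT1 the log2 fold change was -0.025 and for AKT2 0.19, and the block gave neither a call.

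ZMAT3 (ENSG00000172667), also called Wig-1, encodes a zinc finger protein that binds RNA and acts on splicing and on mRNA stability. Its 3 NT libraries had 1443, 1201 and 1579.7 normalized counts, against 3414, 3088 and 3335 with oxaliplatin. No library stood apart within its group, and the coefficient of variation was 13.6% in NT and 5.19% in OXA. The log2 fold change was 1.22 (95% interval 0.94 to 1.49, 2.33-fold, edgeR adjusted p = 0.00340), past the threshold in all 6 fits that left out 1 library. Of the other genes named ZMAT, ZMAT1, ZMAT2 and ZMAT5 did not pass, with log2 fold changes of -0.29, 0.15 and 0.46.

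TP53I11 and TP53I13 are named after an induction by p53 and encode membrane proteins of little known function. TP53I11 (ENSG00000175274) stood at 1802, 3038 and 2289.7 normalized counts without the drug and 2091, 2503 and 2029 with it, so the OXA libraries lay within the range of the NT libraries. Its log2 fold change of -0.11 had a 95% interval from -0.54 to 0.33 (edgeR adjusted p = 0.798), whose upper end is a 1.26-fold rise. TP53I13 (ENSG00000167543) stood at 64.4, 215 and 179 without and 122, 153 and 130.1 with it, again within the NT range. Its interval was wider, from -1.09 to 0.73 around -0.18 (edgeR adjusted p = 0.837), and reaches up to 1.66-fold. Both signs turned without NT library 2, to 0.080 for TP53I11 and 0.12 for TP53I13, with no call. Without NT library 1 the log2 fold changes were -0.27 for TP53I11 and -0.54 for TP53I13. The 95% interval of TP53I13 was then -0.96 to -0.13, but neither gene was called (edgeR adjusted p = 0.265 and 0.104). Exons of both overlap a protein-coding gene on the other strand, and the strand setting of the counting is not given in the sources used here. TP53I13 also shares exonic bases with a long noncoding RNA gene on the other strand, which has no row among the deposited counts. Neither protein-coding neighbour passed, with -0.11 for TSPAN18 beside TP53I11 (adjusted p = 0.691) and -0.40 for ABHD15 beside TP53I13 (adjusted p = 0.115) on the log2 scale.

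**Figure D3:**
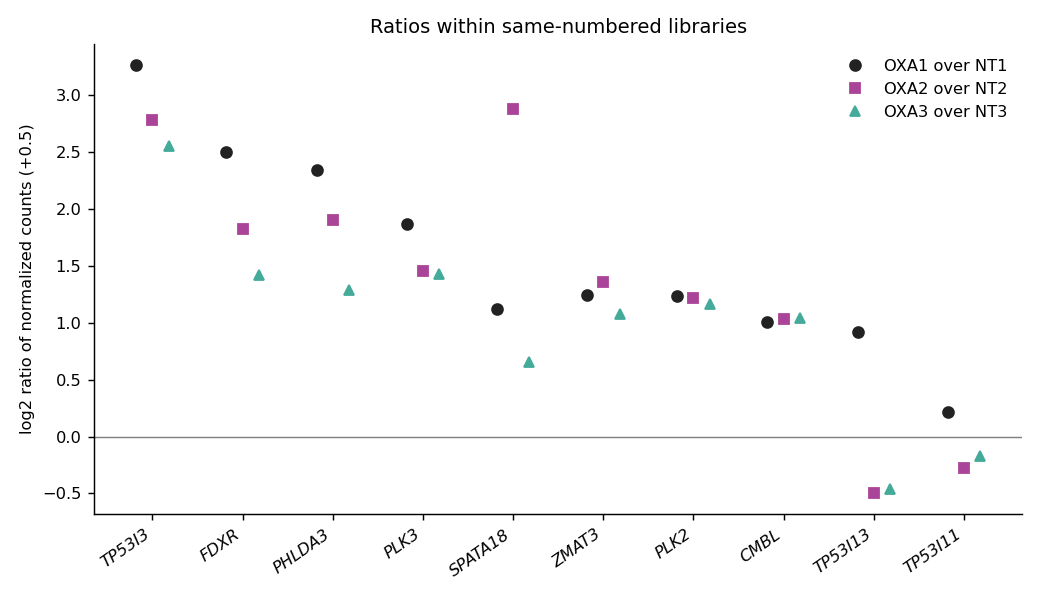
Log2 ratio of normalized counts, each with 0.5 added, of OXA library 1, 2 or 3 over the NT library of the same number (vertical axis) for each of the 10 genes. The 3 ratios run from 1.01 to 1.04 for CMBL and spread from 1.42 to 2.50 for FDXR and from 1.29 to 2.34 for PHLDA3, and for TP53I11 and TP53I13 the ratio of the libraries numbered 1 is above 0 and the others below.

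NT library 1 stood apart in genes of high GC content, the members among them. TP53I3, FDXR, PLK3, PHLDA3, TP53I11 and TP53I13 have canonical transcripts with 59.0% to 67.5% G and C, and in each of them NT library 1 was the lowest NT library, by 0.37 to 1.1 below the NT mean on the log2 scale. In PLK2, CMBL and ZMAT3, with 38.2% to 48.2%, NT library 1 was 0.045 to 0.13 above it. Over the 4292 tested genes with more than 55% the median deviation was -0.43 in NT library 1, 0.27 in NT library 2 and 0.17 in NT library 3, and over the 5042 genes under 45% it was 0.14, -0.099 and -0.037. With the replicate block and with the trend of each library on GC content removed, the log2 fold changes were 2.66 for TP53I3, 1.65 for FDXR, 1.63 for PHLDA3, 1.38 for PLK3, 1.30 for ZMAT3, 1.22 for PLK2 and 1.02 for CMBL, and all 7 passed. In this fit 45.9% of all genes passed, 23.3% upward and 22.6% downward. TP53I11 was then lower in OXA (log2 fold change -0.29, edgeR adjusted p = 0.00108), and TP53I13 was at -0.31 (edgeR adjusted p = 0.134). This setting was chosen after the data had been seen, and the part of GC content in the results was not otherwise tested.

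Compared per transcript length, the order of the genes differed between the groups. Levels are given as CPM per kb of the canonical transcript. In NT, PLK2 was the highest at 32.3 ± 2.84 (mean ± SD, n = 3). TP53I11, CMBL and FDXR followed at 19.8 ± 5.17, 19.6 ± 1.45 and 17.8 ± 8.20, which do not differ beyond their spread. A lower set was formed by PLK3 at 6.13 ± 1.59, ZMAT3 at 4.38 ± 0.596, TP53I3 at 4.08 ± 1.05, PHLDA3 at 3.52 ± 1.40 and TP53I13 at 2.88 ± 1.48, where the mean ± SD ranges of neighbours in this order overlapped, and SPATA18 was the last at 0.0329 ± 0.0192. In OXA, PLK2 at 74.3 ± 7.26 and FDXR at 62.0 ± 14.5 led without differing beyond their spread, followed by CMBL at 40.1 ± 3.02. TP53I3 came next at 29.1 ± 0.578, above TP53I11 at 18.3 ± 2.14 and PLK3 at 18.1 ± 2.42, which were alike within their spread. PHLDA3 reached 12.0 ± 2.45 and ZMAT3 10.2 ± 0.529, whose mean ± SD ranges overlapped, TP53I13 stood at 2.55 ± 0.298 and SPATA18 at 0.0959 ± 0.0346. These levels rest on 1 transcript length per gene and would shift if another isoform prevailed. Added up, all 10 genes held 11014 to 12997 normalized counts in the NT libraries and 26889 to 27804 in the OXA libraries. The 7 genes that rose held 9139 to 10523 and 24657 to 25130. These 7 were selected by their rise in the same libraries, so the separation of their sums follows from that selection.

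**Figure D4:**
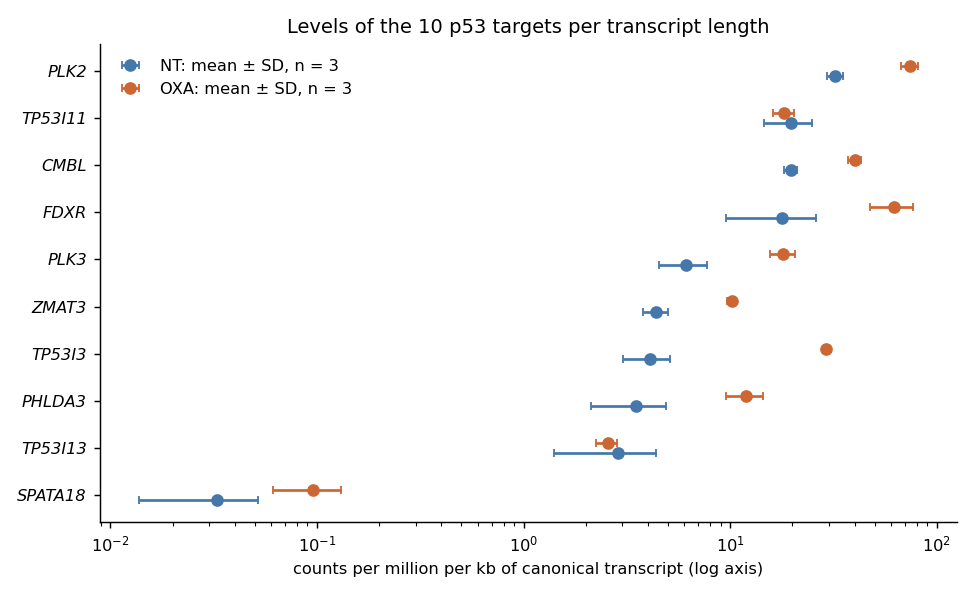
Level of each of the 10 genes in CPM per kb of canonical transcript (horizontal log axis), as mean ± SD of 3 libraries in NT and in OXA. PLK2 is the highest in both groups, TP53I3 moves from 4.08 to 29.1 and so from below to above TP53I11, and SPATA18 lies under 0.1 in both.

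Other targets of p53 were counted from lists written from general knowledge, with earlier results of these data known. The counts are therefore a description and are not independent of these data. In a list of metabolism and mitochondria with 14 genes, 7 of the 14 identifiers tested rose and none fell, with a median log2 fold change of 0.57. Over all genes tested 2.78% rose, and the median was 0.023. With 1 library omitted, between 2 (without any 1 of the OXA libraries) and 10 (without NT library 1) of the 14 rose, and with the authors' factors 4 did. The rises over all genes moved as well, from 381 with all libraries to 66, 94 and 102 without OXA library 1, 2 or 3. They numbered 623 without NT library 1 and 241 with the authors' factors. The highest with counts in every library were ACER2, an alkaline ceramidase, at 1.22 and TIGAR, a regulator of glycolysis, at 1.20. The 7 include 1 of the 2 identifiers of SCO2, which had 0 to 4.16 normalized counts in NT and 15.1 to 22.9 in OXA. It passed the filter through OXA alone, so its fitted fold change is not given, and the other identifier was at 0.23 without a call. CPT1C was the lowest at 0.19 (edgeR adjusted p = 0.584), and GLS2, at 0 counts in NT, was not tested. With the replicate block 11 of the 14 rose, and 12.1% of all genes tested rose in that fit. In a list of signaling, 10 of 15 tested genes rose, with a median of 0.71, and between 4 (without OXA library 1) and 10 did so with 1 library omitted. GDF15, a stress cytokine, was the highest at 1.99, followed by INKA2 at 1.64 and PGF at 1.23, and IGFBP3 at 0.26 and KITLG at -0.39 were the lowest. KITLG, which encodes stem cell factor, did not pass (edgeR adjusted p = 0.0893) but fell with the replicate block (edgeR adjusted p = 0.00639). The block raised the rises from 10 to 12, LIF (adjusted p = 0.0110) and NOTCH1 (adjusted p = 0.0419) being added.

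Of the genes of arrest, death, repair and feedback, 19 of 21 rose, with a median of 1.16, and between 11 (without OXA library 1) and 20 with 1 library omitted. Over all genes tested, 2.78% rose with all libraries, and 66 genes rose without OXA library 1. They were led by CDKN1A at 2.93, MDM2 at 2.22 and BTG2 at 1.90. The exceptions were BBC3 (log2 fold change 1.31, edgeR adjusted p = 0.107) and CCNG1 (log2 fold change 0.27, edgeR adjusted p = 0.159), and both rose with the replicate block. FBXO22, at 0.74, was the lowest after CCNG1. Among the quinone reductases and relatives of TP53I3, by contrast, CRYZ, VAT1, MECR, NQO1 and NQO2 did not pass, at log2 fold changes between -0.42 and 0.20, and VAT1L was not tested. NQO1 fell with the replicate block (log2 fold change -0.42 without it, edgeR adjusted p = 0.00498 with it).

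**Figure D5:**
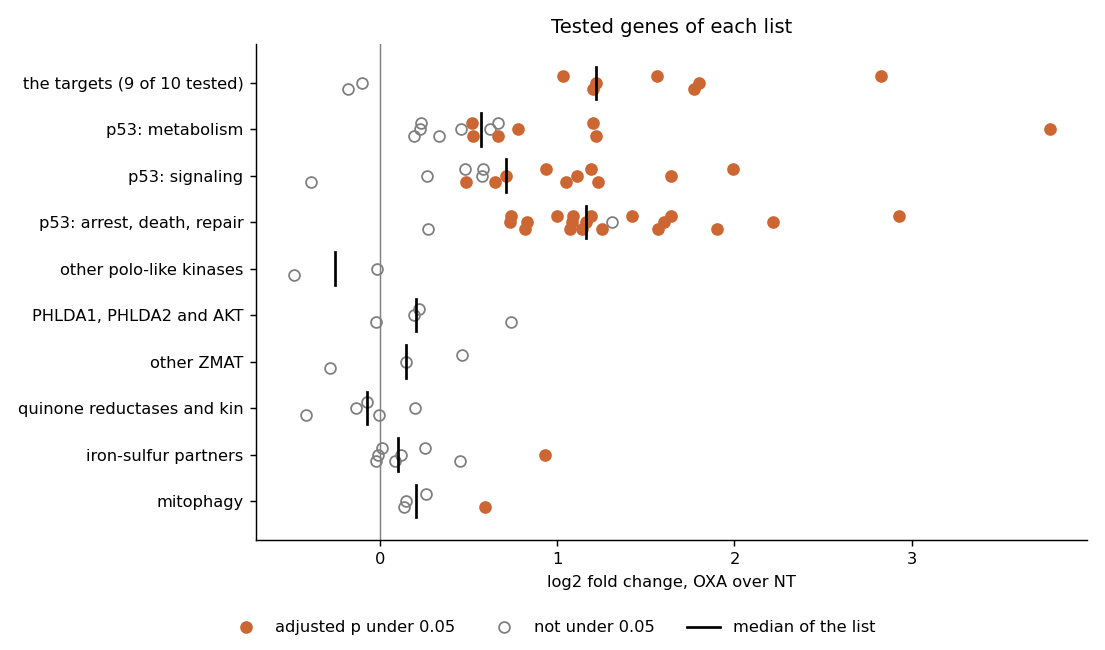
Log2 fold change of OXA over NT (horizontal axis) of every tested gene in each list, filled where the adjusted p was under 0.05 and open where it was not, with a bar at the median of the list. The filled points lie almost wholly in the 4 rows of p53 targets, with ISCU and BNIP3 as the filled points of the lower 6 rows, and the point farthest to the right is the SCO2 identifier whose NT libraries were at or near 0.

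The identity of the cells was checked against markers. EPCAM, CDH1, KRT8, KRT18, KRT19 and CDX2, which mark colon epithelium, were all expressed, VIL1 was low and CDH17 was at or under 3 counts in every library. The 8 markers summed to 77721 to 111630 normalized counts in NT and 126330 to 149340 in OXA, mostly keratins. None of the 7 tested passed the threshold, although KRT8, KRT18 and KRT19 rose and CDH1 fell with the block. KRT19 had the largest estimate without the block, from 12220 ± 5049 to 29835 ± 5640 normalized counts (log2 fold change 1.29, edgeR adjusted p = 0.0616). With DESeq2, 1 of the 7 rose. The sums of the groups did not overlap, and their part in the results above was not tested. Leukocyte markers summed to 9.35 to 19.4 in NT and 2.16 to 6.24 in OXA, and endothelial markers to at most 42.8 in any library. Fibroblast markers summed to 117 to 292 in NT and 176 to 288 in OXA, nearly all of it COL1A1, with DCN and LUM at 0. In bulk RNA, fewer cells that express a gene and less of its RNA per cell cannot be told apart.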

How the data were processed

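RNA of 3 NT and 3 OXA libraries was analysed, grouped by the sample titles. Per the study's methods, reads were aligned to GRCh38 by STAR 2.7.5b and normalized by DESeq2 2.13. The submitters' processing notes also name Trimmomatic 0.32 and RSEM 1.3.3, without roles. The counting program, annotation and strand setting are not given in the sources used here. The deposited raw counts are whole numbers, possibly rounded RSEM estimates, and were used as they are. The authors' normalized signal, made with DESeq2, carries a factor for every gene and library and served for alternatives only.

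Genes passed filterByExpr (minimum count 10, minimum total 15), which left 13727 genes, 9 of the 10 members among them. After TMM scaling, OXA was set against NT by edgeR's quasi-likelihood test (edgeR 4.0.16, limma 3.58.1, R 4.3.3) with Benjamini-Hochberg correction. A gene was called at an adjusted p under 0.05. The standard error is the estimate over the square root of F. In counts simulated from the mean levels and totals of these libraries, the steps recovered 192 of 197 changed genes (97.5%). None was in the wrong direction, and there were 12 false calls among 13714 genes. The simulation used the same setting of spread for all genes, below that seen for FDXR, and the same fold change for all changed genes. It held no GC trend and no likeness of same-numbered libraries. It checks the steps and does not give the share of true changes found in these data. Library totals were 32979521 to 40967880 counts.

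Same-numbered libraries deviated together from their group means (correlation across genes 0.31 to 0.55, against -0.47 to 0.090 for different numbers), which met the limit of 0.1 for pairing by the library numbers in the titles. A fit with that number as a block is therefore given where it changes a call. Alternatives were DESeq2 1.42.0, median-of-ratios factors, no filter, the authors' factors, each library left out, and, added after the data had been seen, the block with GC trends removed by a spline with 5 degrees of freedom. The members and lists were chosen with earlier results of these data known. All members are named, with the genes of the lists of relatives and partners, and of the other p53 lists the 3 highest, the 2 lowest and genes of small counts. Positions, transcript lengths and GC content are from GENCODE release 44. Some items of the lists are not reported here and were left out of their counts.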

Additional observations from a re-analysis of the deposited data

How the results depend on the processing

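The 7 rises were each present with median-of-ratios factors, without the filter, with DESeq2, with the authors' gene-specific factors, with the replicate block, and with the block and GC trends removed, and with a fold change over 1.5 required. Of the members, 0 fell in these fits except that the block with GC trends removed gave 1 fall, TP53I11. When 1 library was left out at a time, the number of members that rose lay between 4 and 7, and 4 was reached without NT library 3, where FDXR, PLK3 and PHLDA3 missed the threshold at log2 fold changes of 2.02, 1.56 and 2.00, and 184 of all genes passed. TP53I3, CMBL, PLK2 and ZMAT3 rose in all 6 of these fits. TP53I11 turned to 0.080 and TP53I13 to 0.12 without NT library 2, which was the highest NT library for both genes. Why that library stood high was not tested. In these 6 fits their log2 fold changes ranged from -0.27 to 0.080 and from -0.54 to 0.12. The count of 8 members without overlap was 8 with each scaling tried. The replicate block changed no call of a member. Among all genes, calls either way numbered 696, against 3157 with the replicate block, 6305 with the block and GC trends removed, and 85 without OXA library 1 (66 higher, 19 lower). SPATA18, at 17 counts at most, was too low for the filter with all libraries. It was tested in 4 of the 6 fits that left out 1 library, and none called it. Its log2 fold changes there were 1.11 to 1.93 (edgeR adjusted p from 0.0899 to 0.303).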
